A study of Homo sapiens with 4 samples.

Results

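CTCF peaks that overlapped no cohesin peak and lay away from annotated transcript starts were examined in HG00731, a human lymphoblastoid cell line (B cells immortalised in culture). A member was a CTCF peak on chromosomes 1 to 22 that shared no base with a peak of SMC1, a core subunit of cohesin, and lay over 1 kb from every transcript start of GENCODE release 44. The rule found 12455 members among 61417 CTCF peaks, which was 20.3% (95% Wilson interval 19.96 to 20.6), or 27.4% of the 45469 CTCF peaks over 1 kb from a start. In HiChIP, chromatin contacts are ligated in crosslinked nuclei and the fragments bound by a protein are then pulled down, so that each library gives both peaks and loops. Cells of this line were crosslinked with formaldehyde alone for CTCF (FA HiChIP), and with formaldehyde followed by ethylene glycol bis(succinimidyl succinate) for SMC1 (FA-EGS HiChIP). Each target had 2 biological replicates, which the authors pooled into 1 peak list and 1 loop list. Both came from 1 cell line. The targets differed in antibody, in crosslinking and, by the study's supplement, in number of reads at the same time, so that these cannot be told apart.

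CTCF is a zinc-finger protein that binds a long, directional DNA motif. Cohesin is a ring-shaped complex that extrudes chromatin loops and is halted where CTCF faces the growing loop, so that most strong CTCF sites in lymphoid cells also carry cohesin. Sites where CTCF is mapped without cohesin are therefore a useful contrast to the anchors of loops.

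The members were chosen by the lack of overlap with the SMC1 list and by the distance from a start, and neither is a finding. The SMC1 list held 94628 peaks on these chromosomes and ended at a q-value of 0.01, so that a member is a site without a called SMC1 peak, which is not the same as a site without cohesin. With 1 pooled list per target there was no spread between replicates and no test. Intervals are 95% rank intervals for medians and 95% Wilson intervals for shares, and cover counting error only. The CTCF peaks closest to the members were the 33014 that overlapped an SMC1 peak over 1 kb from a start, called distal CTCF peaks with SMC1 here, and the 2421 without SMC1 within 1 kb of a start.

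The reference sequence (hg38, plus strand) at 6 members shows the kinds of site that the rule gathered. In the first 3, chosen among the named members for the best match to the CTCF motif, capitals mark the matching 19 bases. They lay between genes at chr3:182710725-182710805, in an intron of NRXN3 (a synaptic adhesion protein) at chr14:78902192-78902272, and in an intron of ASIC2 (an acid-sensing ion channel) at chr17:33685712-33685792.
Chromosome 3 member: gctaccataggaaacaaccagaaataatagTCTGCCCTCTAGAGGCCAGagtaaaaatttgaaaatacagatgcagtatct
NRXN3 member: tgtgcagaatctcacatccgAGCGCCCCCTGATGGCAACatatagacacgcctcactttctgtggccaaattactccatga
ASIC2 member: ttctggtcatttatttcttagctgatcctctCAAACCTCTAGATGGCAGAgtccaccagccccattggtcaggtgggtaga
The other 3 had no match, and were the strongest of the named members without one. Capitals mark the 31 bases around the summit, whose copies on chromosomes 1 to 22, X and Y were counted. They lay at chr4:49657550-49657630 with 99 copies, at chr1:124124332-124124412 with 9 copies, and at chr1:123926247-123926327 with 92 copies, all between genes and near the centromeres.
Chromosome 4 member: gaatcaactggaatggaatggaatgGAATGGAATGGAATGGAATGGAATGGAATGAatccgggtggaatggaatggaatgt
First chromosome 1 member: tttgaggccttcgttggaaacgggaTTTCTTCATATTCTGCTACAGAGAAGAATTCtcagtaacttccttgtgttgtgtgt
Second chromosome 1 member: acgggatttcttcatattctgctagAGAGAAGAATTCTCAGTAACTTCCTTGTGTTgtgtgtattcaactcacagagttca
The chromosome 4 sequence is a run of a short tandem repeat. The 2 sequences of chromosome 1 matched each other at 61 of 62 bases once shifted by 19 bases, although the sites lie far apart on the chromosome.

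Members were weak and narrow peaks. Their median −log10 q-value was 5.61 (95% interval 5.49 to 5.62), with quartiles at 3.89 and 9.55, against 35.2 (34.4 to 36.1) for distal CTCF peaks with SMC1. The median fold enrichment, the read pileup at the summit over the local background, was 3.25 (3.22 to 3.28) for members and 6.43 (6.38 to 6.49) for distal CTCF peaks with SMC1. Their median width was 265 bp (263 to 267), against 577 bp (571 to 583). A wider peak overlaps an SMC1 peak more easily, so that a difference in width can follow in part from the rule. Both intervals lay apart for each measure. CTCF peaks without SMC1 within 1 kb of a start were close to members, with medians of 7.42 for −log10 q, 3.35 for fold enrichment and 275 bp for width.

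**Figure D1:**
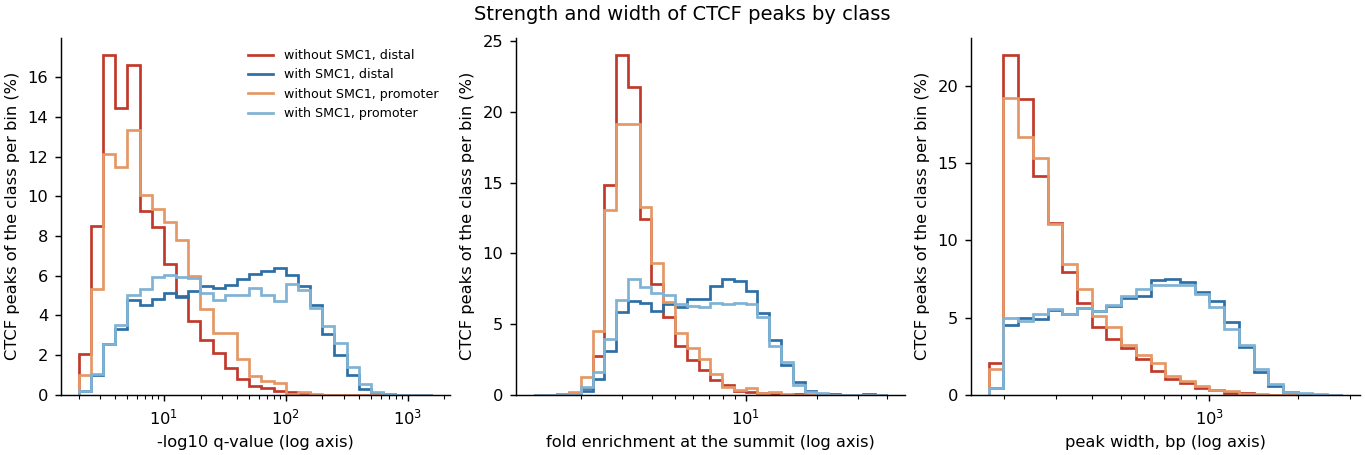
Distribution of −log10 q-value, fold enrichment at the summit and width (log axes) for the 4 classes of CTCF peak, as the percent of each class per bin. Both classes without SMC1 pile up at low values (member medians 5.61, 3.25 and 265 bp), whereas both classes with SMC1 are broad and reach higher (medians 35.2, 6.43 and 577 bp for the distal class).

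The share of distal CTCF peaks without an SMC1 peak fell steadily with the strength of the CTCF peak. It was 69.1% (68.05 to 70.1) of peaks with a −log10 q under 5, 47.85% (46.8 to 48.9) from 5 to 10, 27.4% (26.4 to 28.5) from 10 to 20, and 10.7% (10.03 to 11.4) from 20 to 50. Of the 13789 distal CTCF peaks at 50 or more, 1.10% (0.941 to 1.29) had no SMC1 peak, which was 152 members. Only 23.6% of members had a −log10 q of at least 10, compared with 78.75% of distal CTCF peaks with SMC1. Whether weak CTCF peaks had SMC1 signal below the limit of the SMC1 list was not tested, nor was the part of peak width.

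Values changed little right at the borders of the rule. The 341 members in the first 250 bp beyond the 1 kb limit had a median −log10 q of 5.92, and the 409 peaks without SMC1 in the last 250 bp before it had 6.06. At the SMC1 border, the 290 members within 200 bp of an SMC1 peak had a median −log10 q of 4.94 and a fold enrichment of 3.06. The 336 distal CTCF peaks that overlapped SMC1 peaks by at most 100 bp had 5.04 and 3.10. The other 32678, which overlapped by over 100 bp, had 36.0 and 6.49, so that the 336 do not stand for their class. The members farthest away were not weaker, since the 4764 over 10 kb from any SMC1 peak had a median −log10 q of 5.62 and a fold enrichment of 3.39.

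The median distance to the nearest SMC1 peak was 6656 bp (6443 to 6861), with quartiles at 2165 and 17716 bp. An SMC1 peak lay within 1 kb of 15.6% of members, within 10 kb of 61.75% and within 50 kb of 90.4%. Of all bases of these chromosomes, assembly gaps and the SMC1 peaks themselves included, 8.38%, 36.95% and 66.8% lay that close to an SMC1 peak. Members by the rule share no base with an SMC1 peak, so that these shares are not a matched background. The nearest CTCF peak with SMC1 was at a median of 13688 bp. The median distance to the next member was 49071 bp, and 16.2% had another within 10 kb.

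**Figure D2:**
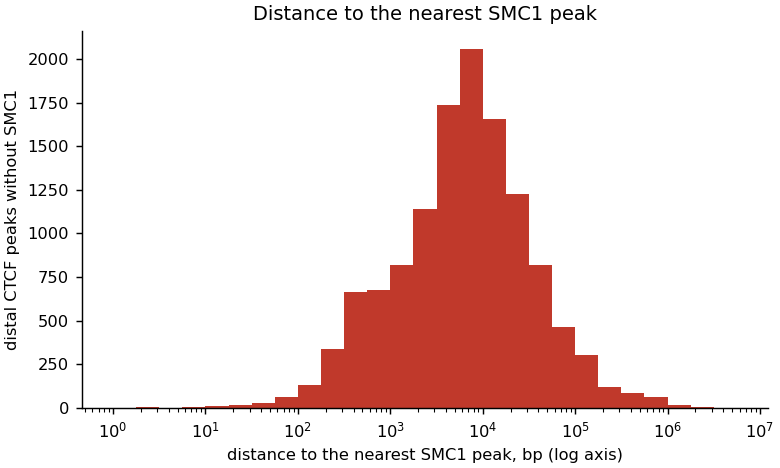
Number of distal CTCF peaks without SMC1 by distance to the nearest SMC1 peak in bp (log axis). The histogram peaks near the median of 6656 bp, with a shoulder below 1 kb that holds 15.6% of members.

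Members held fewer CTCF motifs than distal CTCF peaks with SMC1. A 19-base motif was learned from the 3000 strongest distal CTCF peaks with SMC1 on odd-numbered chromosomes, none of them a member, and its most frequent bases read GTGGCCACCAGGGGGCACC. A match of at least 10 bits on either strand within 50 bp of the summit was present at 11.0% of members (10.4 to 11.5) and at 21.7% (21.2 to 22.1) of distal CTCF peaks with SMC1, where all CTCF peaks gave 19.7%. Windows of equal length 2 kb away gave 4.75% for members and 4.87% for the others. Within 200 bp of the summit, a window added after the profile was seen, the shares were 35.5% for members, 59.3% for distal CTCF peaks with SMC1 and 55.0% for all CTCF peaks, with 18.2% and 18.96% at the positions 2 kb away for the first 2 classes. Motifs were thus more frequent at members than beside them in either window.

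Below a −log10 q of 50, the gap in motifs was small within each range of strength. Within 200 bp, 22.8% (21.7 to 23.9) of members with a −log10 q under 5 held a motif, and 26.7% (24.96 to 28.5) of distal CTCF peaks with SMC1 did. From 5 to 10 the shares were 39.3% (37.8 to 40.7) and 37.6% (36.3 to 39.0), and from 10 to 20 they were 52.2% (49.98 to 54.5) and 48.2% (46.8 to 49.5), so that members were not lower in either range. The order turned again above: 53.5% (50.2 to 56.8) against 58.0% (56.9 to 59.1) from 20 to 50, and 57.2% (49.3 to 64.8) against 77.1% (76.4 to 77.8) at 50 or more. The last range has no upper end, and its peaks were not equal in strength, with a median fold enrichment of 8.65 for members and 9.95 for distal CTCF peaks with SMC1 and median widths of 502 and 844 bp. The motif was learned from peaks of the latter class.

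The summits of members, like those of the other classes of CTCF peak, were placed in relation to GATC, the site cut by DpnII, the restriction enzyme of the protocol. In 1776 members, 14.3% (13.7 to 14.9), a GATC started from 4 bases before to 1 base after the summit, as against 7.08% (6.81 to 7.36) of distal CTCF peaks with SMC1 and 11.3% of all CTCF peaks. The share was higher near starts, at 17.3% (15.8 to 18.8) of CTCF peaks without SMC1 and 17.8% (17.2 to 18.5) of those with it. Beside this spike of 14.3 sites per 100 members in 10 bp, the adjacent 10 bp on either side held 0.0723 and 0.0482 sites. The density then rose to 5.01 sites per 100 members and 10 bp at its highest before the summit and 5.15 after it, in both cases between 100 and 200 bp away, and was 2.50 and 2.59 at about 500 bp. The DpnII fragment under the summit had a median length of 420 bp (416 to 424) at members and 585 bp (578 to 592) at distal CTCF peaks with SMC1.

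**Figure D3:**
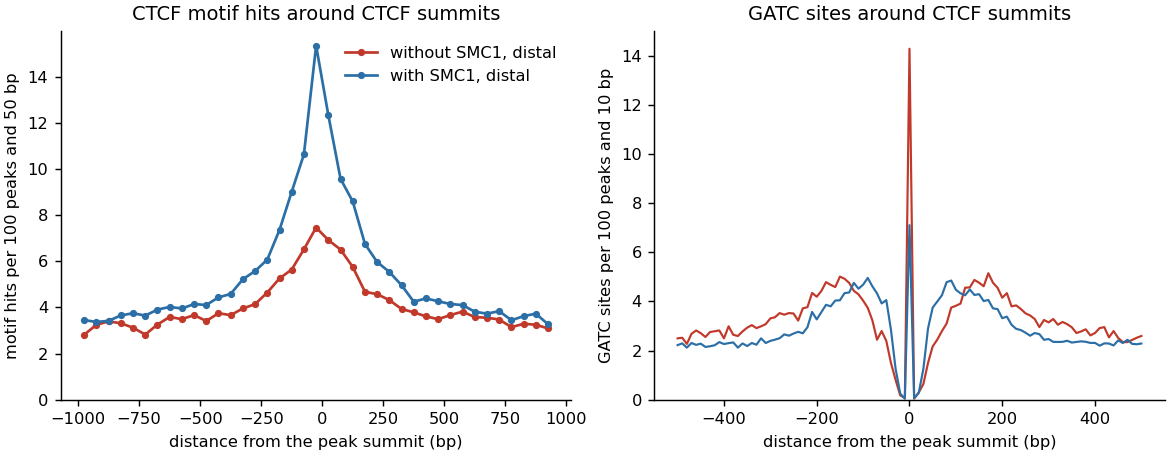
CTCF motif hits per 100 peaks in steps of 50 bp (left) and GATC sites per 100 peaks in steps of 10 bp (right) by distance from the summit, for distal CTCF peaks without and with SMC1. Motif hits reach 7.47 per 100 members beside the summit against 15.35 with SMC1, and GATC sites show a central spike of 14.3 against 7.10, with a gap around it.

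The share of summits on a GATC followed peak strength in both classes. It was 18.4% of members with a −log10 q under 5, 14.1% from 5 to 10, 9.48% from 10 to 20 and 2.98% from 20 to 50. Distal CTCF peaks with SMC1 gave 19.3%, 15.9%, 9.37% and 5.23%. Members with the summit on a GATC were weaker than the other members, with a median −log10 q of 4.70 against 5.62, but were at anchors of the loop list labelled SMC1 more often, at 16.1% (14.5 to 17.9) against 11.2% (10.7 to 11.9). In the list labelled CTCF the intervals overlapped, at 21.5% (19.7 to 23.5) against 20.8% (20.02 to 21.6). Their motif share within 200 bp was 33.3% (31.2 to 35.6) against 35.9% (35.0 to 36.8). What part the enzyme has in calling these peaks was not tested.

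Repeated sequence was more frequent at members. The 31 bases at the summit occurred again elsewhere in 8.75% (8.27 to 9.26) of members and in 5.48% (5.24 to 5.73) of distal CTCF peaks with SMC1, where all CTCF peaks gave 5.82%. This share rose with strength among members, from 8.10% with a −log10 q under 5 to 15.1% (10.3 to 21.7) at 50 or more, while among distal CTCF peaks with SMC1 it went from 5.90% to 4.32%. A tandem repeat, in which at least 60% of bases matched the base a fixed number of positions on, covered 0.795% of member summits and 0.288% of the others. GC content within 50 bp of the summit had a median of 43.6% at members, 45.5% at distal CTCF peaks with SMC1 and 50.5% at peaks without SMC1 near a start. Only reads mapped with a quality over 30 were used by the authors, and the part of mapping in the peaks at repeats was not tested.

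Introns held 61.9% (61.0 to 62.7) of member summits (55.8% of all CTCF peaks), exons 6.60% (13.55% of all CTCF peaks) and the space between genes 31.5% (30.7 to 32.4), where 30.6% of all CTCF peaks lay between genes. All CTCF peaks include those near starts, which the rule leaves out and which lie in exons more often. Distal CTCF peaks with SMC1 were in introns in 57.9% (57.4 to 58.4), in exons in 6.06% (5.81 to 6.33) and between genes in 36.0% (35.5 to 36.5). Protein-coding genes held 7050 members, 56.6% against 56.9% of all CTCF peaks, and 428 members, 3.44% against 6.06%, lay in an annotated UTR. Among distal CTCF peaks with SMC1 these shares were 51.7% and 3.05%. The median distance to a start was 9543 bp (9277 to 9842), against 9640 bp (9473 to 9797) with SMC1. Far from genes the classes parted, though few peaks were involved. Over 500 kb from any start lay 58 members, 0.466% (0.360 to 0.602), and 3 distal CTCF peaks with SMC1, 0.00909%. Of all CTCF peaks, 0.0993% lay that far. The 58 include the chromosome 1 members named below, which lay in repeated sequence near the centromere, 2203 to 2544 kb from a start. How many of the others lay in such sequence was not counted.

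As in the class with SMC1, the place of members shifted towards the space between genes with strength, from 29.0% (27.8 to 30.2) with a −log10 q under 5 to 76 of 152 members (42.15 to 57.85%) at 50 or more. Distal CTCF peaks with SMC1 went from 27.4% (25.6 to 29.2) to 40.1% (39.3 to 40.97). Among chromosomes, the share of distal CTCF peaks that were members ran from 22.6% (20.9 to 24.3) on chromosome 4 to 31.4% (29.35 to 33.5) on chromosome 17. The density was lowest on chromosome 13, with 2.67 members per Mb, and highest on chromosome 17, with 7.16, followed by chromosome 19 with 7.11.

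The member summits fell in 6393 genes, of which 4352 held 1 member and 133 held 5 or more. NTM, a neuronal adhesion protein, held 12 members beside 17 distal CTCF peaks with SMC1 in its 966 kb. Its strongest member, chr11:131668845-131669258, lay in an intron with a −log10 q of 62.5 and a motif of 16.1 bits within 200 bp. ASIC2, GSE1 and KAZN held 11 members each, beside 17, 21 and 21 distal CTCF peaks with SMC1. The strongest in ASIC2 had a −log10 q of 15.1 and an SMC1 peak 114 bp away, and that in GSE1, chr16:85303890-85304250, had 28.15 and one 1421 bp away. Most genes high in this order were long. Shorter ones were HMCN2, with 9 members and 1 distal CTCF peak with SMC1 in 168 kb, and THEM7P, with 9 and 4 in 231 kb. FRY held 10 members beside 6 such peaks, and MLLT3, a subunit of the super elongation complex, held 8 beside 5.

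Gene lists were read against the 27.4% of distal CTCF peaks that were members over all chromosomes. Genes of B cell identity and signalling held 35 members among 168 distal CTCF peaks, 20.8% (15.4 to 27.6), in 13 of the 29 genes. EBF1, a transcription factor of early B cells, held 6 members and 12 distal CTCF peaks with SMC1, and RUNX1 held 5 and 8. Of the 35 members, 13 were at anchors of the loop list labelled CTCF and 8 of the list labelled SMC1, where 20.9% and 11.9% of all members were. Long neuronal and adhesion genes held 61 members among 217 distal CTCF peaks, 28.1% (22.55 to 34.4), in 16 of 19 genes, and of these members 2 were at anchors of the list labelled CTCF and 0 of the list labelled SMC1. MACROD2 held 8 members beside 16 distal CTCF peaks with SMC1, while RBFOX1, a neuronal splicing factor, held 8 beside 6.

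Genes of CTCF and cohesin factors held 12 members among 29 distal CTCF peaks, 41.4% (25.5 to 59.3). Of these, 5 lay in STAG1, a cohesin subunit, and 2 each in NIPBL, which loads cohesin, in PDS5B, which regulates it, and in ESCO1, which acetylates it. Imprinted genes held 6 members among 23, 26.1% (12.55 to 46.5), with 2 each in GNAS and KCNQ1. The intervals of all 4 lists included 27.4%.

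The strongest members stood apart from the rest in where they lay. The highest −log10 q was 558 at chr4:49657508-49657753, with a fold enrichment of 33.0, no SMC1 peak within 51.6 kb and the tandem repeat printed above. Members at chr1:124124231-124124461, chr1:123926008-123926608 and chr1:123783425-123783787 followed in the same kind of place, with −log10 q values of 367, 280 and 148 and fold enrichments of 32.3, 34.5 and 21.99. Their nearest SMC1 peaks were 894 to 1056 kb away, and the 31 bases at their summits occurred 9, 92 and 2931 times. None of these 4 was at an anchor of either loop list, and none held a motif within 200 bp.

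Among the other members of the 10 strongest, the summit bases did not occur again elsewhere, except at the first one named here. Between genes on chromosome 19, 41.6 kb from the start of BSPH1, chr19:47950005-47950589 had a −log10 q of 258 and a fold enrichment of 28.9. Its summit bases had 5 copies, and it held a motif of 17.8 bits within 200 bp. In an intron of HCN2, which forms a pacemaker channel, chr19:605736-606301 had a −log10 q of 149 and an SMC1 peak 397 bp away. In an intron of TARS3, a threonyl-tRNA synthetase, chr15:101654906-101655174 had 148 and lay at anchors of 4 loops of the list labelled SMC1 and 6 of the list labelled CTCF. The member at chr22:50543983-50544592, 1077 bp from the start of KLHDC7B-DT, had 148, and that at chr1:5514486-5515746, between genes, had 142 over 1261 bp. The last of the 10 strongest, chr11:45233375-45233938, lay in a UTR exon of PRDM11 with a −log10 q of 142, a motif of 12.2 bits and no SMC1 peak within 17.65 kb.

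The 3 widest members were chr4:49510958-49512857 at 1900 bp, chr3:182710188-182711587 at 1400 bp and chr11:103537571-103538967 at 1397 bp. The first had a −log10 q of 10.7 and a fold enrichment of 4.46, and lay 196 kb from an SMC1 peak. The second held the best motif within 50 bp of the summit among the named members, at 17 bits, a −log10 q of 78.5 and 9 loops of the list labelled CTCF. In the gene lists, the strongest member of the B cell genes lay in an intron of PLCG2, a phospholipase of B cell receptor signalling, with a −log10 q of 54.9, and that of the neuronal genes in NRXN3, with 89.2. The strongest member in NIPBL, with 11.4, sat on 31 bases that occurred 3702 times. In GNAS, which encodes the alpha subunit of a stimulatory G protein, the strongest member had a −log10 q of 19.9 and lay at anchors of 3 and 13 loops of the lists labelled SMC1 and CTCF.

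Loops were given as pairs of 5 kb bins, called anchors, in lists of 27785 loops labelled SMC1 and 79406 labelled CTCF on these chromosomes. All loops of the list labelled SMC1 held a CTCF peak at an anchor and 27774 held an SMC1 peak. All loops of the list labelled CTCF held an SMC1 peak and 75752 held a CTCF peak. The paper states that its loops have at least 1 anchor enriched in the target, and its supplement gives the size of each list under the other target. The sizes and the peaks at the anchors are thus what an exchange of the labels would give. How the labels arose could not be traced from the files, so that they are in doubt. The loop lists are therefore named by their labels only, and no loop is ascribed to 1 protein.

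Members were less often at loop anchors than other CTCF peaks. Nearly all loops held an SMC1 peak at an anchor, which a peak with SMC1 supplies and a member by its definition does not, so that a lower share follows in part from how members were chosen. Of the members, 1487 lay at an anchor of the list labelled SMC1, 11.9% (11.4 to 12.5), where 28.4% of all CTCF peaks and 31.2% (30.7 to 31.7) of distal CTCF peaks with SMC1 did. At anchors of the list labelled CTCF lay 2601 members, 20.9% (20.2 to 21.6), as against 55.5% of all CTCF peaks and 64.6% (64.1 to 65.1) of distal CTCF peaks with SMC1. The anchors covered 4.51% and 10.48% of the chromosomes. A member at an anchor had a median of 1 loop in either list, and the highest numbers were 21 and 34.

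Within ranges of strength the gap in anchor share stayed wide in the list labelled CTCF. In the list labelled SMC1 it narrowed only at a −log10 q from 10 to 50. In the list labelled CTCF, 17.3% (16.3 to 18.4) of members with a −log10 q under 5 were at an anchor, and 48.1% (46.1 to 50.15) of distal CTCF peaks with SMC1. At 50 or more the shares were 33.6% (26.5 to 41.4) and 81.4% (80.8 to 82.1). In the list labelled SMC1 they were 10.7% (9.91 to 11.6) and 20.7% (19.1 to 22.4) under 5, and 23.03% (17.05 to 30.3) and 46.9% (46.05 to 47.7) at 50 or more. From 10 to 20 they were 14.7% (13.2 to 16.4) and 18.1% (17.03 to 19.15). From 20 to 50 the intervals met, at 18.2% (15.79 to 20.91) and 21.7% (20.77 to 22.66).

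**Figure D4:**
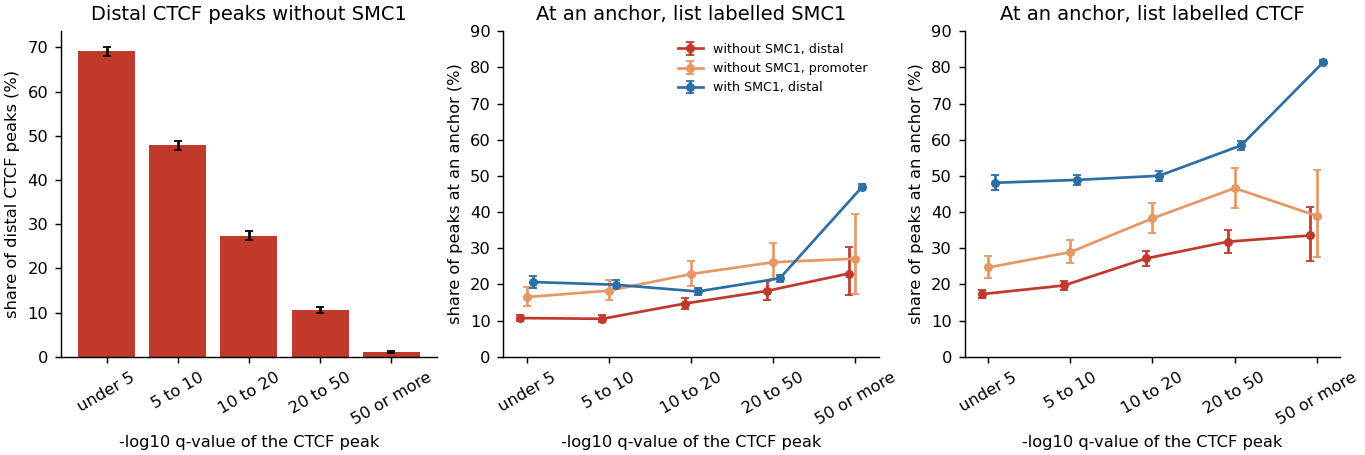
Share of distal CTCF peaks without an SMC1 peak (left) and share of peaks at a loop anchor in the lists labelled SMC1 (middle) and CTCF (right), by −log10 q of the CTCF peak, in percent with 95% Wilson intervals. The share without SMC1 falls from 69.1% to 1.10%, and distal peaks without SMC1 lie below those with SMC1 at each strength in the list labelled CTCF, from 17.3% against 48.1% to 33.6% against 81.4%.

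Anchors that held a member often held SMC1 as well. Of the 1489 such anchors in the list labelled SMC1, 411 (27.6%) held an SMC1 peak and a CTCF peak with SMC1, 343 (23.04%) an SMC1 peak but no CTCF peak with SMC1, and 735 (49.4%, 46.8 to 51.9) no SMC1 peak. Of the 2589 in the list labelled CTCF, 858 (33.1%) were of the first kind, 714 (27.6%) of the second and 1017 (39.3%, 37.4 to 41.2) of the third. Anchors without a member lacked an SMC1 peak in 29.3% and 28.8%. For the anchors that held a member and no SMC1 peak, an SMC1 peak lay in a neighbouring bin at 68.7% (65.3 to 72.0) and 74.4% (71.7 to 77.0). This was below the 76.3% (75.3 to 77.3) and 78.1% (77.5 to 78.7) of anchors with neither a CTCF nor an SMC1 peak.

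The far ends of loops from these anchors carried CTCF and cohesin together. In the list labelled SMC1, 903 of 918 partner anchors, 98.4% (97.3 to 99.0), held a CTCF peak with SMC1. In the list labelled CTCF it was 1280 of 1406, 91.0% (89.4 to 92.4), and all 1406 held an SMC1 peak, which the make-up of that list required. For comparison, loops without a member were taken that held a distal CTCF peak with SMC1 at a single anchor. They were 13083 of the 19516 loops with such a peak in the list labelled SMC1, and 38242 of 55899 in the other. Loops with such a peak at both anchors were left out, so that a partner could count almost only through a peak near a start. Their partners held a CTCF peak with SMC1 in 41.4% (40.5 to 42.2) and 31.7% (31.3 to 32.2), which is low in part by this choice. Nearly all loops held an SMC1 peak at an anchor, and in the list labelled SMC1 910 of the 918 partners of anchors without one held it. The shares for the 2 kinds of anchor are therefore not alike in what they could show. A start of a coding transcript lay at 37.5% and 29.4% of the partners of anchors with a member and no SMC1 peak.

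Loops with a member at an anchor numbered 2501 in the list labelled SMC1, 9.001% of the list, and 5667 in the list labelled CTCF, 7.14%. Their median span was 115 kb (110 to 115) and 120 kb (120 to 125), against 130 kb and 125 kb (125 to 130) for loops without a member. The ratio of observed to expected read pairs had medians of 3.87 (3.77 to 3.95) and 3.91 (3.84 to 3.97) with a member and 4.01 (3.99 to 4.04) and 4.04 (4.02 to 4.06) without, and the median read pairs were 21 and 23 against 22 and 23. Both anchors held a member in 50 and 119 loops. Members were the only CTCF peaks at the anchors of 29 loops of the list labelled SMC1, with a median span of 35 kb (10 to 85), and of 471 loops of the list labelled CTCF, with 75 kb (65 to 80) and a ratio of 3.12 (3.04 to 3.25).

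The direction of the motif was compared with the side on which the anchor had more loops, at peaks with a motif within 200 bp of the summit. Among members at anchors without an SMC1 peak, the motif pointed into the loops in 48.3% (42.25 to 54.3) of 259 for the SMC1 label and 57.2% (51.99 to 62.2) of 355 for the CTCF label. Among members at anchors with an SMC1 peak the values were 54.2% (48.4 to 59.8) of 288 and 57.1% (52.9 to 61.2) of 541. Both intervals of the list labelled CTCF lay above 50%, and both of the list labelled SMC1 included it. Distal CTCF peaks with SMC1 gave 81.5% (80.55 to 82.4) of 6634 and 82.8% (82.1 to 83.45) of 12622. That difference was not matched for strength, and a split added after these values were seen gave a smaller one among weak peaks. With a −log10 q under 10, the motif pointed into the loops in 47.35% (41.8 to 52.98) of 302 members and 57.5% (52.9 to 61.95) of 454 distal CTCF peaks with SMC1 in the list labelled SMC1. In the list labelled CTCF it was 55.6% (51.2 to 59.97) of 489 members and 60.6% (57.5 to 63.6) of 987. At 10 or more, the values were 56.3% (50.07 to 62.4) of 245 members against 83.3% (82.3 to 84.2) of 6180, and 58.97% (54.1 to 63.6) of 407 against 84.7% (84.02 to 85.3) of 11635, where the peaks with SMC1 were also the stronger ones. A motif was found at 18.2% of the positions 2 kb from members and at 35.5% of members, so that matches of this score were also frequent beside members.

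**Figure D5:**
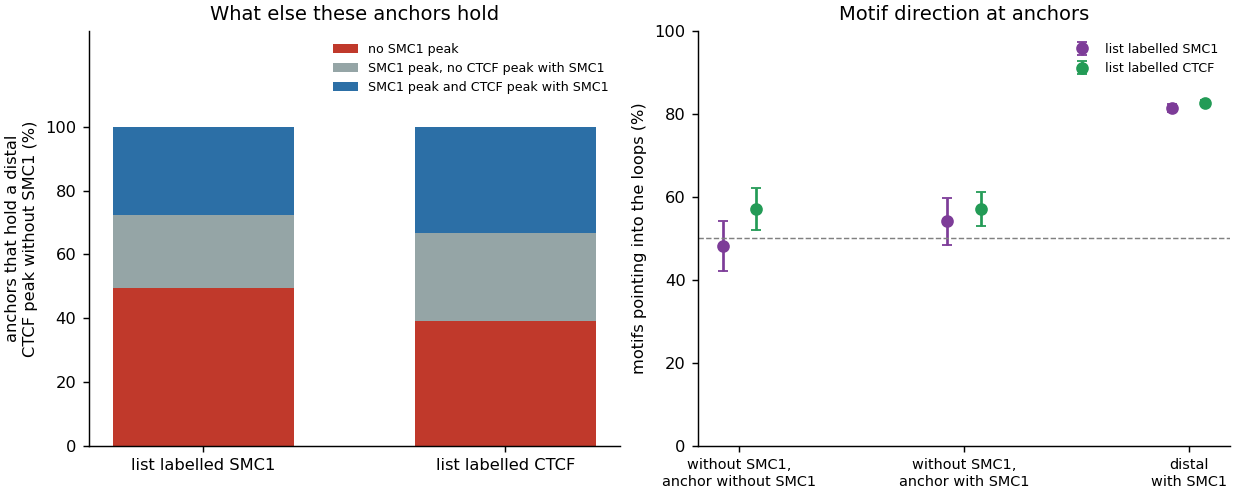
Make-up of the anchors that held a distal CTCF peak without SMC1 (left, percent of 1489 and 2589 anchors) and percent of motifs that pointed into the loops (right, with 95% Wilson intervals and a dashed line at 50%). Anchors without an SMC1 peak make up 49.4% and 39.3%, and motifs point into the loops in 48.3% to 57.2% at members against 81.5% and 82.8% at distal peaks with SMC1, which were stronger peaks.

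The 5 members with the most loops had fold enrichments from 2.15 to 3.58, of which 4 were below the median of all members, and −log10 q values from 5.06 to 37.5, of which 4 were above the median −log10 q of all members. The member at chr14:35407672-35407893, 2923 bp from the start of NFKBIA, an inhibitor of NF-kappa-B, lay at anchors of 21 loops of the list labelled SMC1 and 26 of the list labelled CTCF, and had a fold enrichment of 2.21. Its nearest SMC1 peak was 217 bp away. The member at chr2:46464945-46465193 had 20 and 23 loops and a fold enrichment of 3.58, and that in an intron of WNK1, a kinase, chr12:754830-755371, had 18 and 23 loops and 2.53. These 2 members each crossed a border between bins, with their nearest SMC1 peaks 760 and 2058 bp away. For each, a bin without an SMC1 peak was an anchor in both lists, but its loops were counted together with any of the neighbouring bin. How many of the loops came from the bin without an SMC1 peak was not counted. Members in introns of ABTB2 at chr11:34356253-34356494 and NANOS3 at chr19:13863088-13863316 had 9 and 34 loops, and 14 and 25, with fold enrichments of 2.16 and 2.15 and SMC1 peaks 58 and 310 bp away. A 5 kb bin cannot tell which of the peaks in or beside it the loop belongs to.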

How the data were processed

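Peaks and loops of SMC1 FA-EGS HiChIP and CTCF FA HiChIP of HG00731 were used as deposited, 2 pooled replicates per target. The authors aligned reads to hg38 (BWA-MEM, mapping quality over 30, duplicates removed) and ran MACS3 3.0.1 without an input sample, keeping peaks up to a q-value of 0.01. Deposited peaks give a −log10 q, a fold ratio at the summit and a display score, which was not used. Deposited loops (MAPS, 5 kb bins) give counts of read pairs, expected pairs and a false discovery rate, a p-value the authors adjusted. The total depth of the libraries is unknown from these lists, which hold only called features. The study's supplement gives more reads for SMC1 than for CTCF.

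An overlap of 1 base counted as shared. Distances used GENCODE 44 on hg38. The motif was learned by expectation maximisation, and motif hits, GATC sites and 31-base copies were counted with Python 3.11.15, NumPy 2.4.6 and pysam 0.24.0. The code was tested on simulated data. Intervals are 95% rank and Wilson intervals. Named members were the 10 most significant, the 5 with the most loops, the 3 widest, and the strongest in the 3 genes with most members and in each gene list. KAZN, HMCN2, THEM7P, FRY, MLLT3 and the single genes counted within the lists were named after their values were seen. Members, gene lists and comparisons were chosen with earlier results of these data known.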

Additional observations from a re-analysis of the deposited data

How the results depend on the processing

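Alternatives changed which peaks were members or how features were matched, and each value that left the 95% interval of the reported one (or a count that moved over 1.5 times) is given here. The number of members also moved within that limit. It was 10517 with no SMC1 peak within 1 kb, and 8671 over 5 kb from a start. When only SMC1 peaks with a −log10 q of at least 10 removed a CTCF peak, it was 17670. The intervals of the member shares do not cover such changes. With no SMC1 peak within 1 kb, the median −log10 q was 5.34, the motif share 11.5%, the shares at anchors 9.92% (list labelled SMC1) and 16.0% (list labelled CTCF), and the shares of anchors without an SMC1 peak 67.4% and 57.5%. When only SMC1 peaks with a −log10 q of at least 10 removed a CTCF peak, the median −log10 q was 6.23, fold enrichment 3.37 and width 282 bp, the motif share 12.1%, the share at anchors labelled CTCF 23.95%, and the shares of anchors without an SMC1 peak 34.9% and 24.7%. With members restricted to a −log10 q of at least 10, 2934 remained, with medians of 16.1 for −log10 q, 4.805 for fold enrichment, 344 bp for width and 47.5% for GC content. Of these 36.5% lay between genes, 17.1% held a motif, 16.2% and 28.9% were at anchors, 33.0% and 31.6% of their anchors had no SMC1 peak, and both median spans were 130 kb. Over 5 kb from a start, the median fold enrichment was 3.29 and GC content 42.6%, 35.8% lay between genes, 9.64% and 17.9% were at anchors, 51.95% of the anchors labelled SMC1 had no SMC1 peak, and the median spans were 120 and 135 kb. Motif minimums of 7 and 13 bits gave 24.8% and 4.54%, and a window of 200 bp, chosen after seeing the data, gave 35.5%. Restricting to even-numbered chromosomes, asking for the summit inside the anchor, and keeping members whose summit sequence occurs once (also chosen after seeing the data) moved none of the values recomputed under them.

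No paired analysis was possible because the peak and loop lists pool both replicates, and for the same reason no fit without 1 replicate was run. The share of repeat-masked bases was not computed, since the reference sequence used carries no masking. Depth per replicate is not in these lists, and a site below the limit of the SMC1 list counts as a site without SMC1.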
